A study of Mus musculus with 4 samples.

Results

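The clustered replication-dependent histone genes were read on microarrays in sorted LSK cells of mouse bone marrow. LSK cells lack lineage markers, carry Sca-1 and c-Kit, and include the blood stem cells. Members were all non-control probes whose gene name begins with Hist1h, Hist2h, Hist3h or Hist4h, which gave 45 genes read by 52 probes, of 55681 probes on the array. Lethally irradiated mice had received E14.5 fetal liver cells that carried a TET2 knock-down (TET2KD, collected 10 weeks after transplantation), JAK2V617F (16 weeks), both (the double mutant, 13 weeks) or neither (WT, 16 weeks), all with C57B6 as the strain given. TET2 oxidises 5-methylcytosine, and JAK2V617F is the activated kinase of myeloproliferative neoplasms, present here as a transgene whose promoter is not given in the sources used here. The design text lists 5 mice a genotype, but each genotype had 1 array, and whether cells were pooled is not stated. Genotype and weeks after transplantation cannot be told apart for TET2KD and the double mutant, since only JAK2V617F and WT shared a time.

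Histones package DNA into nucleosomes: pairs of H2A, H2B, H3 and H4 form the core particle, and the linker histone H1 binds where DNA enters and leaves it. The clustered genes lack introns and are transcribed mainly while DNA replicates, under NPAT, and their mRNAs end in a conserved stem-loop, bound by SLBP, in place of a poly(A) tail. Their level in a population therefore rises with the share of cells in S phase, while replication-independent variants such as H3.3 and H2A.Z are made throughout the cycle. Some clustered genes, Hist1h1c and Hist1h2bc among them, are also known to give longer polyadenylated transcripts outside S phase.

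By cluster, 39 probes for 34 genes belong to Hist1 on chromosome 13, 10 probes for 8 genes to Hist2 on chromosome 3, 2 probes to Hist3 on chromosome 11 and 1 probe to Hist4 on chromosome 6. By type, 6 probes read H1, 13 H2A, 11 H2B, 8 H3 and 14 H4. Of the 52 probes, 43 were well above background on all 4 arrays and 48 on at least 1. The 4 that were on none read Hist1h1d, Hist1h2bp, Hist1h3a and a distant stretch of Hist2h2bb, which a different probe detected nearer the stem-loop.

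The stem-loop itself lies within 5 member probes, and only 8 of the 55681 probes (0.0144%) hold it whole. The stretches below, of 30 bases each, show how closely the element is kept between genes of different types, with the stem-loop in capitals.
Hist1h3a: aattaaccaaaGGCTCTTTTCAGAGCCaca
Hist1h3g: cactttaaaGGCTCTTCTTAGAGCCaccca
Hist1h3i: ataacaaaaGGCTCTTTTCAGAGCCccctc
Hist1h4m: caactaaaGGCCCTTTTCAGGGCCatccaa
Hist2h2bb: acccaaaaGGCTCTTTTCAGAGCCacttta
The first 4 lie on chromosome 13 and the fifth on chromosome 3.

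Many of the coding stretches are near-identical too, so that these probes cannot be assigned to 1 gene each. Of the 52 probes, 10 shared at least 85% of their bases with another member probe over 40 or more bases. Probes were compared with probes and not with transcripts, so other probes may also read several genes. The whole 60-base probes of 4 H2A genes, which end at the stop codon, are shown because of their likeness in sequence. Capitals mark bases that differ from the Hist1h2ak probe.
Hist1h2ak: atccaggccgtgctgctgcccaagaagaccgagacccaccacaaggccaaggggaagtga
Hist1h2af: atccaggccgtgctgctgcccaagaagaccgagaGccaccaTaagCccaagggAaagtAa
Hist2h2aa2: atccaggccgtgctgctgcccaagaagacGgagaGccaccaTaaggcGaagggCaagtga
Hist1h2an: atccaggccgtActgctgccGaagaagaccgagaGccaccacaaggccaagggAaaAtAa
The Hist1h2af and Hist2h2aa2 probes differ from it at 5 positions each and the Hist1h2an probe at 6. The first 3 of these probes, with those of Hist2h2ac and Hist1h2ah, also share a stretch of at least 20 bases with a probe for the variant H2afj. The values of such probes are not independent of each other.

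The main result was a lower signal of most clustered histone probes on the TET2KD array than on the WT array. Medians were -0.19 for H1, -0.53 for H2A, -1.30 for H2B, -0.71 for H3 and -0.75 for H4. By cluster they were -0.64 for Hist1, -0.77 for Hist2 and -0.70 for the 1 Hist4 probe. The 2 Hist3 probes had -1.50, with Hist3h2bb-ps not well above background in TET2KD, and -0.96 in JAK2V617F.  The double mutant lay between TET2KD and WT, and JAK2V617F lay near the WT level. The median log2 difference over the 48 probes compared was -0.67 for TET2KD, 0.04 for JAK2V617F and -0.26 for the double mutant, each against WT. Over all probes compared, the TET2KD median was -0.02, and 51.0% of them were below 0, against 42 of the 48 histone probes. With 1 array a genotype these are values of single arrays with no replicate check, and scaling to the 75th percentile leaves out any change in total RNA. A lower signal from a smaller share of cycling cells and one from less RNA in each such cell cannot be told apart in bulk cells.

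**Figure D1:**
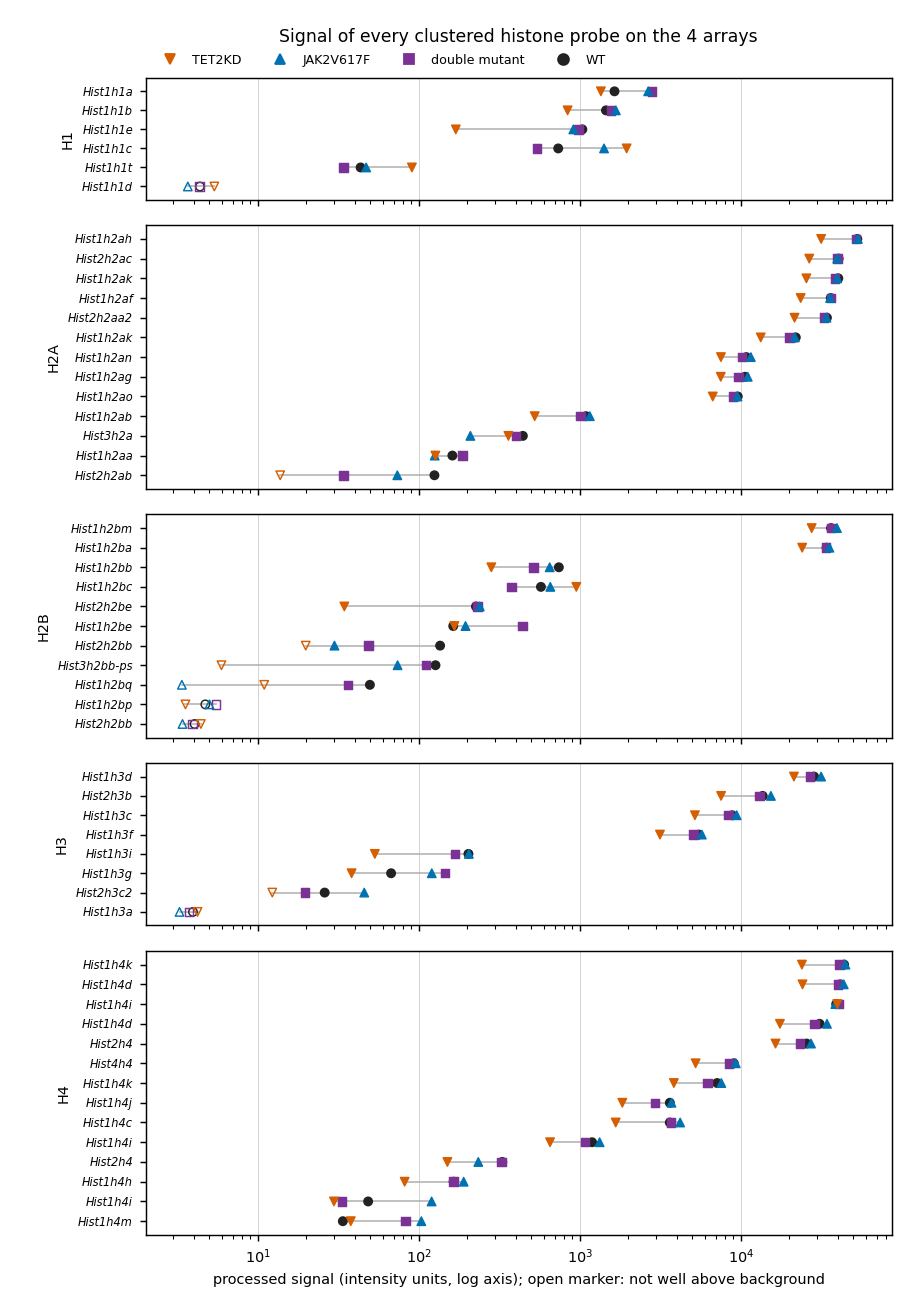
Processed signal (intensity units, log axis) of each of the 52 clustered histone probes on the TET2KD, JAK2V617F, double mutant and WT arrays, grouped by histone type. Open markers are signals not well above background. On most H2A, H3 and H4 lines the TET2KD marker is the lowest and the other 3 lie close together.

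Signals set the precision. Repeated spots of a probe within an array gave an SD of 0.22 for a log2 difference between arrays in all 5 comparisons, which covers spotting and scanning only. The array's 75th percentile was 120 in TET2KD, 130 in JAK2V617F, 144 in the double mutant and 128 in WT, and 49.4% to 54.7% of spots were well above background. Log2 differences among all probes were widest at low signal, so the 28 histone probes with a mean signal of at least 1000 over the 4 arrays, called bright below, were also summarised alone, a limit chosen after the values were seen. The mean was geometric for these probes and for all bright probes of the array. It was arithmetic for the bands of signal and of G and C, the bright probes of gene lists, and the box plots and grey points of the figures. Tet2 was at 27.3% and 56.3% of WT in TET2KD and at 60.3% and 61.6% in the double mutant on the 2 probes well above background on all arrays. In JAK2V617F the same probes stood at 73.1% and 105% of WT, and the third Tet2 probe was well above background in the double mutant alone.

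Most H4 probes were lower on the TET2KD array and close to WT on the JAK2V617F array. H4 is the most conserved core histone, and its 14 probes read 9 genes. The H4 probe with the highest signal in WT, for Hist1h4k, had 24018 in TET2KD, 44749 in JAK2V617F, 40977 in the double mutant and 43878 in WT. Its log2 difference from WT was -0.78 for TET2KD, -0.00 for JAK2V617F and -0.27 for the double mutant. The TET2KD array was thus the low one, and JAK2V617F and WT lay together, a pattern that recurs below, although the H4 probe with the highest mean over the 4 arrays, for Hist1h4i, did not show it. A dimmer Hist1h4k probe gave 3848 in TET2KD, 7585 in JAK2V617F, 6219 in the double mutant and 7141 in WT. Its TET2KD difference of -0.80 lay within 0.02 of that of the first probe. Hist1h4d, also with a pair of probes, was at 24212 and 17535 in TET2KD against 41464 and 30926 in WT. The 2 probes differed from WT by -0.68 and -0.73. The pair for Hist1h2ak, an H2A gene, gave -0.57 and -0.63.

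The largest H4 differences in TET2KD were those of Hist2h4 and Hist1h4c. Hist1h4c had 1675 in TET2KD, 4209 in JAK2V617F, 3691 in the double mutant and 3631 in WT, and was 2.03-fold lower in TET2KD than in WT. A dim Hist2h4 probe gave 151 in TET2KD against 331 in WT, 2.06-fold lower, while a bright Hist2h4 probe gave 16466 against 25654, a log2 difference of -0.55. The 2 Hist2h4 probes agreed in direction and differed by 0.49 in size. Hist1h4h, Hist1h4j and Hist4h4, the single gene of its cluster, had log2 differences of -0.92, -0.89 and -0.70. In all, 12 of 14 H4 probes were below 0 in TET2KD, with a median of -0.75.

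The H4 exceptions were the Hist1h4m probe and a Hist1h4i probe. Their features given here were not particular to them. Other stem-loop probes were lower in TET2KD, such as Hist1h3g at -0.72 and Hist1h3i at -1.84. So were the H2A probes that share bases with the H2afj probe. Hist1h4m, read across its stem-loop, was dim, with 37.9 in TET2KD, 104 in JAK2V617F, 83.0 in the double mutant and 33.8 in WT. It was 3.01-fold higher in JAK2V617F and 2.18-fold higher in the double mutant than in WT. A Hist1h4i probe stayed at 39849 in TET2KD, 38748 in JAK2V617F, 40769 in the double mutant and 39199 in WT. That probe shares at least 20 bases with a probe for Galns, a lysosomal enzyme gene outside the clusters. The other two Hist1h4i probes were lower in TET2KD, with log2 differences of -0.77 and -0.61. The 3 probes of this gene thus disagree, and the dimmest was 2.43-fold higher in JAK2V617F than in WT while the others differed by 0.13 and -0.05 on the log2 scale.

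H3 genes, whose tails carry many of the regulatory histone marks, were all lower in TET2KD where measured. All 7 probes compared were below 0, with a median of -0.71. Hist2h3b had 7561 in TET2KD, 15409 in JAK2V617F, 13060 in the double mutant and 13702 in WT. Hist1h3c had 5200 in TET2KD, 9446 in JAK2V617F, 8427 in the double mutant and 8858 in WT. These genes lie on different chromosomes and differed by -0.77 and -0.68. Hist1h3f followed at -0.71, and Hist1h3d showed the smallest difference of the bright H3 probes at -0.32. The largest was on a dim probe across the Hist1h3i stem-loop, with 53.5 in TET2KD, 205.1 in JAK2V617F, 169 in the double mutant and 204 in WT, 3.58-fold lower in TET2KD than in WT. Hist1h3g, also read across the stem-loop, had log2 differences of -0.72 for TET2KD, 0.81 for JAK2V617F and 0.94 for the double mutant. Hist2h3c2 was not well above background in TET2KD and had 45.9 in JAK2V617F, 19.8 in the double mutant and 26.1 in WT.

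H2A was lower in TET2KD on every probe. All 13 probes were below 0 in TET2KD, with a median of -0.53 and quartiles of -0.63 and -0.42. Hist1h2ah had 31621 in TET2KD, 53458 in JAK2V617F, 51949 in the double mutant and 53037 in WT. The 4 genes whose probes are printed above differed from WT by -0.57 (Hist1h2ak), -0.53 (Hist1h2af), -0.58 (Hist2h2aa2) and -0.43 (Hist1h2an). Hist2h2ac, Hist1h2ag and Hist1h2ao stood at -0.51, -0.41 and -0.42. The 9 bright H2A probes ranged from -0.65 to -0.41 in TET2KD, from -0.06 to 0.06 in JAK2V617F and from -0.30 to -0.16 in the double mutant. These 3 ranges do not overlap, but the probes share sequence and are no replicates of each other.

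Dimmer H2A probes varied more. Hist1h2ab, whose probe ends inside its stem-loop, had 526 in TET2KD, 1157 in JAK2V617F, 1009.8 in the double mutant and 1096 in WT, and was 1.95-fold lower in TET2KD than in WT. Hist2h2ab was not well above background in TET2KD, and had 73.8 in JAK2V617F, 34.0 in the double mutant and 125 in WT. It was at least 6.79-fold lower in TET2KD and 4.14-fold lower in the double mutant than in WT. Hist3h2a departed from the others: it had 361 in TET2KD, 209.6 in JAK2V617F, 404 in the double mutant and 444 in WT, 2.16-fold lower in JAK2V617F. Hist1h2aa, a testis histone gene, had 127 in TET2KD, 126 in JAK2V617F, 188 in the double mutant and 162 in WT, differences of -0.26, -0.39 and 0.04.

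H2B held both the largest differences and some of the exceptions. Its median in TET2KD was -1.30 over 9 probes, of which 5 were at least 2-fold lower (17.0% of all probes were), but it was -0.46 with normexp background correction. Its 2 bright probes, for Hist1h2bm and Hist1h2ba, gave only -0.31 and -0.41. Hist1h2ba is the testis H2B gene, yet its probe had 24101 in TET2KD, 35583 in JAK2V617F, 34013 in the double mutant and 34165 in WT. Whether this probe also reads other H2B transcripts was not tested. Hist2h2be had 34.6 in TET2KD, 239.7 in JAK2V617F, 231 in the double mutant and 227 in WT. It was 6.16-fold lower in TET2KD than in WT, and the other 3 arrays lay together. Hist1h2bb had 283 in TET2KD, 652 in JAK2V617F, 516 in the double mutant and 743 in WT, 2.46-fold lower in TET2KD. Hist3h2bb-ps and the stem-loop probe of Hist2h2bb were not well above background in TET2KD, at least 6.89-fold and at least 6.41-fold lower than in WT. Hist2h2bb was also 4.62-fold lower in JAK2V617F and 3.14-fold lower in the double mutant than in WT.

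Against this stood Hist1h2bc, with 954 in TET2KD, 657 in JAK2V617F, 376 in the double mutant and 575 in WT. It was 1.77-fold higher in TET2KD and 1.72-fold lower in the double mutant than in WT. Hist1h2be had 167 in TET2KD, 196 in JAK2V617F, 443 in the double mutant and 164 in WT, 2.40-fold higher in the double mutant. Hist1h2bq was not well above background in TET2KD or JAK2V617F, had 36.4 in the double mutant and 49.8 in WT, and was at least 2.70-fold lower in TET2KD and at least 3.62-fold lower in JAK2V617F than in WT.

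The linker histones went both ways. Hist1h1c (probe at chr13:23832018-23832077, mm9) had 1958 in TET2KD, 1418 in JAK2V617F, 543 in the double mutant and 736 in WT. It was 2.84-fold higher in TET2KD, 1.89-fold higher in JAK2V617F and 1.52-fold lower in the double mutant than in WT. Hist1h1e (probe at chr13:23713707-23713766, mm9) had 170.2 in TET2KD, 914 in JAK2V617F, 982 in the double mutant and 1039.7 in WT. It was 5.73-fold lower in TET2KD than in WT, the other 3 arrays lying together, so these somatic H1 genes went opposite ways on the TET2KD array. Hist1h1b had 842 in TET2KD, 1678 in JAK2V617F, 1560.1 in the double mutant and 1457 in WT, 1.62-fold lower in TET2KD. Hist1h1a had 1356 in TET2KD, 2665 in JAK2V617F, 2818 in the double mutant and 1646 in WT, 1.59-fold higher in JAK2V617F and 1.52-fold higher in the double mutant. Hist1h1t, the testis H1 gene, was dim, with 90.9 in TET2KD, 47.2 in JAK2V617F, 34.3 in the double mutant and 43.6 in WT, 2.22-fold higher in TET2KD.

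**Figure D2:**
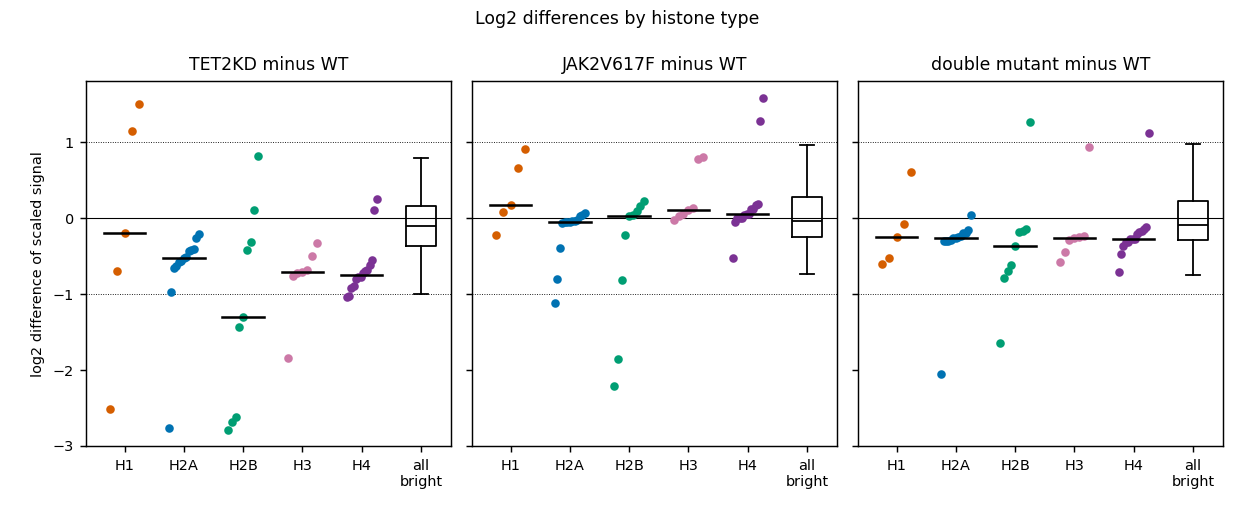
Log2 difference of the scaled signal between each mutant array and WT, 1 point a probe, by histone type, with the type's median as a black line. Box plots give the quartiles, with whiskers at the 5th and 95th percentiles, of all probes with a mean signal of at least 1000, and dotted lines mark 2-fold. H2A, H3 and H4 points sit below 0 in TET2KD except for 2 H4 points, and H1 points spread to both sides.

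Promoters of the clustered genes carry shared elements, and those of Hist1h1c and Hist1h1e are shown with Hist1h2ab because the 2 H1 genes went opposite ways in TET2KD. In the 250 bases before the start, from RefSeq (GRCm38.p6), the CCAAT box was found on either strand in 32 of 39 member promoters (82.1%, against 34.5% of 27025 promoters). TATAAA was found in 18 (46.2%, against 13.0%) and the octamer ATTTGCAT in 9 (23.1%, against 1.61%). The octamer was in 5 of 12 H2A and 4 of 7 H2B promoters and in none of 6 H1, 6 H3 and 8 H4 promoters, and CCAAT was in only 2 of 8 H4 promoters. A letter match is not a binding site. The last 150 bases before each start are printed on the gene's own strand, with matches to these 3 motifs on either strand in capitals.
Hist1h1c: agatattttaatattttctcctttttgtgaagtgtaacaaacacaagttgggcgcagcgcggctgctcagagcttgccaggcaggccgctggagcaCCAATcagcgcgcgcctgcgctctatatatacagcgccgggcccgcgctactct
Hist1h1e: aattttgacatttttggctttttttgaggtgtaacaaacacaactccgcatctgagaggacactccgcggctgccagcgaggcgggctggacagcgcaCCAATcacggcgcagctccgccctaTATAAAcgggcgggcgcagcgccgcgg
Hist1h2ab: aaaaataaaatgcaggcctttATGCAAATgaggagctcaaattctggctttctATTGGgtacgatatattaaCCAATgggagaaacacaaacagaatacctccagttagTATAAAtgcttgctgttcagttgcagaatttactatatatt
These are chr13:23738657-23738806 on the plus strand, chr13:23622559-23622708 on the minus strand and chr13:23750938-23751087 on the plus strand. Both H1 promoters hold a CCAAT box, and TATAAA is within the printed stretch of Hist1h1e.

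The exceptions were then set beside the place of each probe along its target. A probe was called late when it starts at base 500 or beyond (1000 for H1), past the usual place of the stem-loop, a limit chosen after the values were seen. The 8 late probes compared had a median of -0.35 in TET2KD, with 5 below 0, against -0.68 and 33 of 35 for early probes and -0.97 and 4 of 5 for probes that reach the stem-loop. Of the 6 probes above 0 in TET2KD, the late ones read Hist1h1c, Hist1h2bc and Hist1h2be, the Hist1h4m probe crosses the stem-loop, and the early ones read Hist1h1t and the Hist1h4i stretch shared with Galns. A late place did not by itself go with a higher value: the Hist2h2be probe starts at base 1849 and was among the lowest. The late probes have not been tied to polyadenylated forms here.

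**Figure D3:**
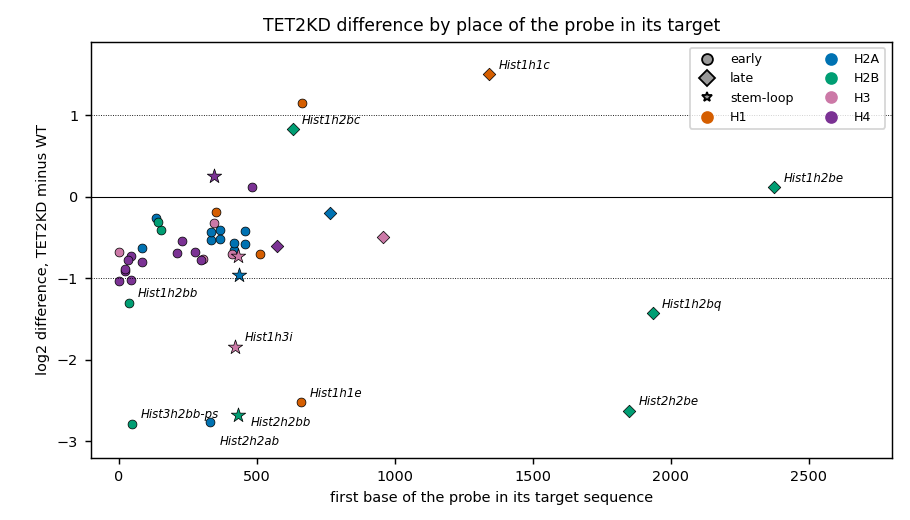
Log2 difference between TET2KD and WT (vertical axis) against the first base of each probe in its target sequence (horizontal axis), coloured by histone type, with circles for early, diamonds for late and stars for stem-loop probes. Dotted lines mark 2-fold. Early probes have a median of -0.68 and range from -2.78 to 1.15. Late probes have a median of -0.35 and range from -2.62 (Hist2h2be) to 1.50 (Hist1h1c).

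Counted at 2-fold or more in TET2KD against WT, 10 of 48 histone probes were lower, where 17.0% of all 32199 probes compared were, and 2 were higher, where 17.6% were. The count of lower probes was thus near the background, and the difference lay in its direction and evenness rather than in its size. The 28 bright histone probes had a median of -0.60 and quartiles of -0.71 and -0.42, while the 3873 bright probes of the array had a median of -0.10 and quartiles of -0.36 and 0.16. Summed over the 52 probes and scaled, the signal was 70.3% of WT for TET2KD, 101% for JAK2V617F and 85.9% for the double mutant.

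Signal and base composition are set beside this because histone probes are bright and rich in G and C. Among probes with a mean signal of at least 20000, the 13 histone probes had a TET2KD median of -0.55, and the 411 other probes had 0.09. At a signal of 5000 to 20000, 8 histone probes had -0.65, and 983 other probes had -0.16, with 68.5% below 0. Among bright probes with at least 60% G and C, 11 histone probes had a median of -0.73 and all were below 0. The 160 other probes there had 0.13, with 27.5% below 0. At 50% to 60%, 15 histone probes had -0.43 and 761 other probes had -0.09. Under 50%, 2 histone probes had 0.40 and 3083 other probes had -0.11. In the double mutant the gap was narrower. At a mean signal of at least 20000 the histone median was -0.21 and that of the other probes -0.14, and 84.4% of those other probes were below 0 as well. Among bright probes with at least 60% G and C, the double mutant medians were -0.28 for histone probes and -0.05 for other probes.

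**Figure D4:**
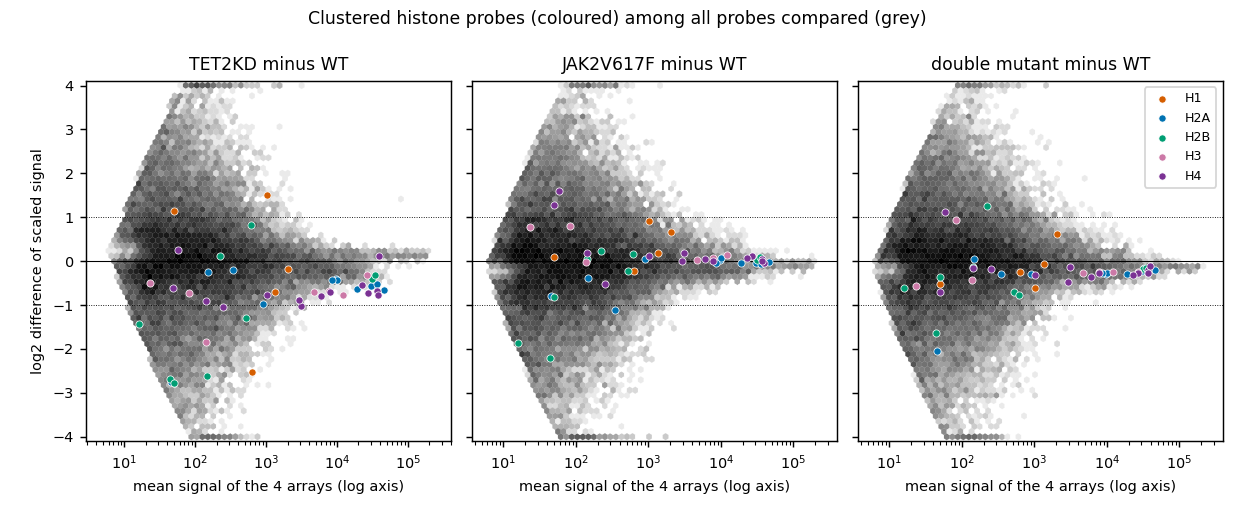
Log2 difference from WT (vertical axis, drawn up to 4 either way) against the mean signal of the 4 arrays (log axis) for TET2KD, JAK2V617F and the double mutant, with all probes compared in grey and histone probes coloured by type. Dotted lines mark 2-fold. Most bright histone probes lie below 0 in TET2KD, inside the spread of the grey. Their median of -0.60 is below the lower quartile of -0.36 of all bright probes. They lie near 0 in JAK2V617F and slightly below 0 in the double mutant.

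In JAK2V617F the clustered histone probes stood near the WT level. Of 48 probes, 2 were at least 2-fold higher (16.1% of 33672 probes were) and 3 lower (16.4% were). The bright members ranged from -0.06 to 0.92, with quartiles of -0.02 and 0.12. Of these, 9 of 28 were below 0, where 53.8% of all bright probes were. Hist1h1c at 0.92 and Hist1h1a at 0.67 were the only bright members beyond 0.20, both of the H1 type. Medians by type were 0.17 for H1, -0.04 for H2A, 0.03 for H2B, 0.12 for H3 and 0.06 for H4. The probes past 2-fold were all dim or of moderate signal: Hist1h4m and a Hist1h4i probe were higher, and Hist2h2bb, Hist3h2a and Hist1h2bq lower.

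In the double mutant 43 of 48 histone probes were below WT, where 50.2% of all probes were, but by little. Its median was -0.26, the quartiles were -0.37 and -0.17, and medians by type were -0.25 for H1, -0.26 for H2A, -0.37 for H2B, -0.25 for H3 and -0.27 for H4. Past 2-fold, Hist1h2be and Hist1h4m were higher (2 of 48, where 16.3% of 33507 probes were), and Hist2h2ab and Hist2h2bb lower (2 of 48, where 16.7% were). Of all bright probes, 58.9% were below WT, with a median of -0.08. All 28 bright members but Hist1h1a were below WT, with a median of -0.25. Most of these differences are about the size of the SD of 0.22 from repeated spots.

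The double mutant was lower than JAK2V617F, from which it differs by the knock-down, in 40 of 48 probes, with a median of -0.27, while 51.2% of all probes were below 0. All 28 bright members were below 0 there, as were 63.0% of the 3874 bright probes of the array, which had a median of -0.07. At 2-fold, 4 were lower (13.7% of 33983 probes were) and 2 higher (13.4% were). The lower ones were a Hist1h4i probe, Hist1h1c, Hist2h3c2 and Hist2h2ab, at -1.99, -1.52, -1.36 and -1.25. Hist1h2be and Hist1h2bq were the higher ones. Against TET2KD, from which it differs by JAK2V617F, the double mutant had a median of 0.43, against 0.00 over all probes. It was higher in 41 of 48 histone probes by their signs, while 49.95% of all probes were below 0. At 2-fold, 7 histone probes were higher (15.6% of 32923 probes were) and 3 lower (16.8% were). Among probes well above background on both arrays, Hist2h2be and Hist1h1e were the highest, at 2.48 and 2.27, and Hist1h1c, Hist1h1t and Hist1h2bc were lower, at -2.11, -1.67 and -1.60. These comparisons share arrays with those against WT and add no independent evidence.

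Taking the knock-down across both backgrounds, TET2KD and the double mutant were both below both JAK2V617F and WT on 34 of 48 histone probes, while 13.1% of all 37231 probes were, and 25 of the 28 bright members were, against 23.0% of bright probes. No histone probe had both knock-down arrays above both others (0 of 48, against 12.6%). For JAK2V617F, both carrying arrays were above both others on 4 of 48 (15.4% of all probes) and below on 2 of 48 (15.1%). This rule was chosen after the values were seen, 2 arrays against 2 cannot go below an exact permutation p of 0.333, and near-identical probes count more than once.

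The knock-down difference was smaller where JAK2V617F was present. The interaction is the knock-down difference with JAK2V617F present minus that without it. Its median was 0.39 over the 48 histone probes, against -0.00 over all 37231. It was below 0 on 8 of 48, against 50.1% of all probes. It was not tested, since no residual degree of freedom is left. By type the interaction median was 0.13 for H1, 0.38 for H2A, 0.93 for H2B, 0.39 for H3 and 0.39 for H4. For the 2 bright H2B probes it was 0.13. The interaction was widest for single genes. Hist2h2bb, Hist3h2bb-ps and Hist1h2bq stood at 3.24, 3.23 and 2.67, each with at least 1 array not well above background. Hist1h1c, Hist1h2bc and Hist1h1t stood at -3.03, -1.77 and -1.75. These 3 were higher in TET2KD than in WT and lower in the double mutant than in JAK2V617F.

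A limma fit with additive TET2KD and JAK2V617F terms over the 4 arrays, with 1 residual degree of freedom and the Benjamini-Hochberg adjustment over 30653 probes, called no probe at an adjusted p under 0.05 for either term (0.00% for TET2KD and 0.00% for JAK2V617F). Its smallest adjusted p was 0.862 for TET2KD and 0.659 for JAK2V617F. At an unadjusted limma p under 0.05, 1 histone probe, for Hist2h2ab, was lower for TET2KD (5.71% of all probes, or 1751, passed) and 0 for JAK2V617F (7.50%, or 2300, passed). The fitted TET2KD difference had a median of -0.45 over the histone probes, with 43 of 48 below 0. Over all probes its median was 0.01, with 49.1% below 0. The fitted JAK2V617F difference had a median of 0.21 over the histone probes, with 9 of 48 below 0. Over all probes its median was -0.03, with 52.1% below 0. No statement here on the histone genes therefore passes a test between genotypes.

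The machinery that makes and removes histone mRNA was set beside the genes themselves. The list for histone gene transcription and pre-mRNA processing had a median of -0.46 for TET2KD, 0.02 for JAK2V617F and -0.15 for the double mutant, over 38 probes in each. In TET2KD 13 of them were at least 2-fold lower, where 17.0% of all probes were, and 6 at least 2-fold higher, where 17.6% were. Slbp, the stem-loop binding protein, had 829 in TET2KD, 1808 in JAK2V617F, 1302 in the double mutant and 978 in WT on its brighter probe. Its difference from WT was -0.15 in TET2KD and 0.86 in JAK2V617F, and a dimmer probe gave 0.21 and 0.95. On neither probe was Slbp lower in TET2KD by more than the spot SD. Npat, the coactivator of the clusters, was not well above background in WT and had 66.1 for TET2KD, 51.2 for JAK2V617F and 485 for the double mutant. Cpsf3, the endonuclease that cuts histone pre-mRNA, was 3.13 above WT for TET2KD, 3.99 for JAK2V617F and 3.46 for the double mutant on the log2 scale, from a dim signal of 35.3 in WT.

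The histone mRNA decay list, of 11 probes, had a median of -0.93 for TET2KD, -0.32 for JAK2V617F and 0.01 for the double mutant. Eri1, the exonuclease that trims the stem-loop end, had 23.7 in TET2KD, 132 in JAK2V617F, 39.7 in the double mutant and 61.0 in WT. Upf1, which acts in histone mRNA decay, stood at 1406 in TET2KD, 2558 in JAK2V617F, 2494 in the double mutant and 1716 in WT. Chaperones and assembly factors had medians of -0.10, 0.28 and 0.12 in the same order, with Chaf1b, a subunit of the CAF-1 complex, at 196 in TET2KD, 628 in JAK2V617F, 668 in the double mutant and 926 in WT on its brightest probe.

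Replication-independent variants gave a mixed picture, which depends on whether probes are counted alike or weighted by signal. Their median was 0.26 for TET2KD, 0.04 for JAK2V617F and -0.02 for the double mutant, and over 12 bright probes 0.03 in TET2KD. Their summed and scaled signal was 77.1% of WT in TET2KD, against 70.3% for the clustered probes, and 4 of the 5 variant probes with the highest signal in WT were lower. H2afy, which encodes macroH2A, had 1029 in TET2KD, 2269 in JAK2V617F, 2627 in the double mutant and 459.8 in WT on 1 of its probes. H3f3a, an H3.3 gene, was at -0.48 and 0.04 on its 2 probes in TET2KD, and H2afv at -0.82 on its bright probe. H3f3b, also an H3.3 gene, was higher on all its probes, at 0.36, 0.26 and 1.38, and H2afx was at 0.33. H2afz, the H2A.Z gene, was at -0.93 and -0.41 in TET2KD on its 2 probes. H2afj was at -1.80 and -0.52, and its brighter probe had 28220 in TET2KD, 45625 in JAK2V617F, 43638 in the double mutant and 43275 in WT, with a stretch in common with H2A probes of the clusters as given above.

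As an S phase output, the clustered histones were set beside other S phase genes. The S phase replication list had a median of -0.26 for TET2KD, 0.40 for JAK2V617F and 0.25 for the double mutant, and over its 16 bright probes -0.03, 0.32 and 0.23. The bright histone medians were -0.60, 0.04 and -0.25. The difference between the lists was not tested. Mcm6, a subunit of the replicative helicase, had 7823 in TET2KD, 11158 in JAK2V617F, 13507 in the double mutant and 8494 in WT. Pcna, the sliding clamp, had 1909 in TET2KD, 2481 in JAK2V617F, 2608 in the double mutant and 2725 in WT, a TET2KD difference of -0.42. G2 and mitosis genes had medians of -0.51, 0.67 and 0.51, with Mki67 at 0.66 and 0.57 in JAK2V617F on its probes, and CDK inhibitors and quiescence genes -0.41, -0.18 and -0.34. Over 7 bright probes the mitosis medians were -0.10, 0.58 and 0.58. In TET2KD the bright S phase median lay above the -0.10 of all bright probes, which were set by the other mean. The bright mitosis median was level with it. Below 0 were 10 of 16 bright S phase and 6 of 7 bright mitosis probes, and 58.6% of all bright probes. The summed, unscaled signal of the mitosis list was 14510 in TET2KD and 22773 in WT. For the S phase list it was 1.9422e+05 in TET2KD and 1.9991e+05 in WT. Unlike the histone sum, these sums were not scaled, and the array's 75th percentile was 120 in TET2KD and 128 in WT. They cannot be set beside the histone sum, and the small S phase gap gives no direction. In JAK2V617F both lists had medians above 0 with or without the dimmer probes, and the histone median was near 0.

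**Figure D5:**
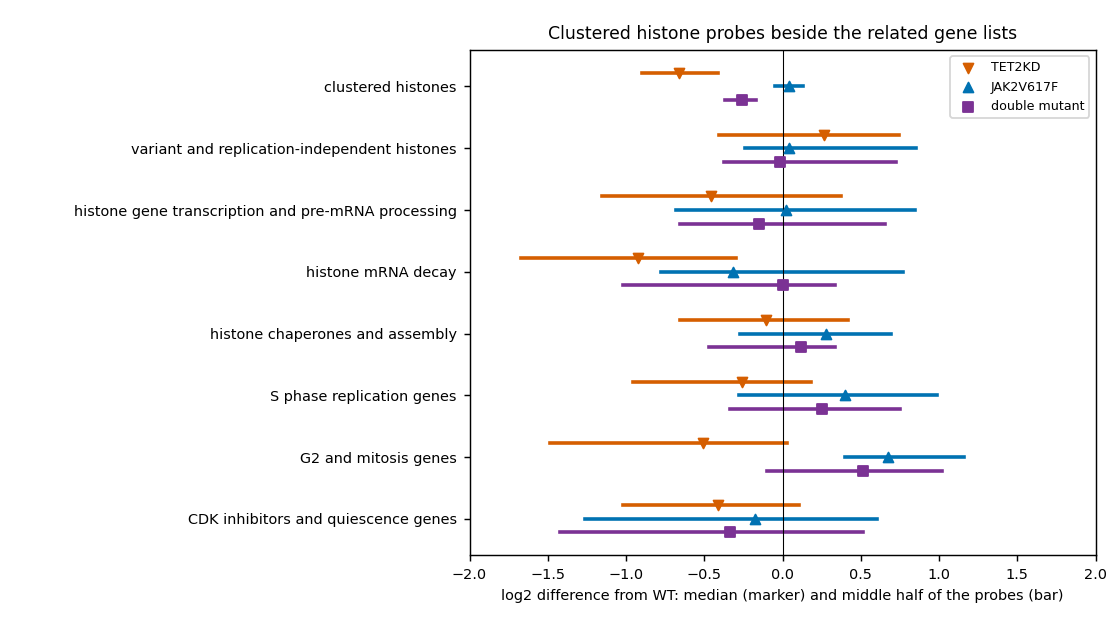
Median log2 difference from WT (marker) and quartiles of the probes (ends of the bar) for TET2KD, JAK2V617F and the double mutant, for the clustered histone probes and the related gene lists. The clustered histones have the narrowest bars, centred at -0.67, 0.04 and -0.26.

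The arrays differed in more than histones. Of the LSK markers, 7 of 8 probes were well above background on every array, and both genes that define the gate were among them. Kit had 1689 in TET2KD, 992 in JAK2V617F, 742 in the double mutant and 2324 in WT. Ly6a, which encodes Sca-1, went the other way, with 1281 in TET2KD, 1302 in JAK2V617F, 938 in the double mutant and 559 in WT. The summed signal of the 7 neutrophil probes was 4969 in TET2KD, 1211 in JAK2V617F, 4952 in the double mutant and 3441 in WT, and 5 of 7 were at least 2-fold higher than WT in TET2KD (17.6% of all probes were) and 4 of 7 in the double mutant (16.3% were). The other two in TET2KD were below WT, Lcn2 at -0.78 and Mmp8 at -0.46, and Lcn2, with the highest signal of the 7 in WT, was also below WT in the double mutant, at -0.36. Granulocyte and monocyte progenitor probes summed to 12403 in TET2KD, 26826 in JAK2V617F, 33803 in the double mutant and 6403 in WT. Erythroid probes summed to 2788, 128, 1549 and 197 in the same order, from 3, 5, 5 and 2 of 6 probes well above background. The part of these cells in the histone difference was not tested.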

How the data were processed

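The deposited files hold spot intensity per array, made with Agilent Feature Extraction 10.7.3.1 per the file headers. The processed signal is background-subtracted and detrended within an array and is not scaled between arrays. Arrays have 1 colour (Cy3), and probe coordinates are mm9. The labels' protocols name Trizol for the RNA and the NuGEN Ovation Pico WTA kit for its amplification. The deposited series matrix holds log2 values: each column equalled log2 of the processed signal shifted by a constant, with 0 probes off by more than 0.001. Its direction and scale are thus known, and its column medians were -2.63 in TET2KD, -2.60 in JAK2V617F, -2.60 in the double mutant and -2.64 in WT. All 4 arrays lay on 1 slide and scan.

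Signals were taken to log2 and lowered by the 75th percentile of the array (control spots left out), outlier spots were dropped (162 to 199 an array) and spots of a probe averaged. No spot was saturated. A probe was compared if well above background on at least 1 of the 2 arrays. A side that was not was set to the higher of the lowest signal well above background on that array and its own signal, and the fold is then written "at least". Probes were counted, not genes, at 2-fold or more, against all probes compared. The limma fit (limma 3.58.1, R 4.3.3) used probes well above background on at least 2 arrays and was tested on simulated data. Other steps used Python with pandas and matplotlib. Probe symbols are those of the files, and all 52 were matched to a RefSeq table (GRCm38.p6), which also gave the promoters.

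The alternatives tried were normexp (offset 50), scaling by quantiles or by the median of probes detected on all arrays, stricter and no filters on dim probes, series matrix values, a 3-fold threshold, averaging probes of a gene and an intensity trend in limma. By rule, member genes were named from the 10 highest and 10 lowest differences of a mutant from WT, the 5 highest and 5 lowest of the double mutant from a single mutant, up to 5 either way that were not well above background on 1 array, the 10 brightest in WT, every gene with several probes, the testis histones, the 3 largest interactions each way and the 2 to 4 members of a list that differed most. Slbp, Upf1, Eri1, Mcm6, Pcna, Mki67, Kit, Ly6a, Lcn2, Mmp8, H3f3a, H2afv, H2afz and H2afj were named for their known roles or shared sequence after their values were seen. H3f3b and H2afx were also named after their values were seen, as variants above WT in TET2KD. The members, the gene lists and the tests were chosen with earlier results of these data known. One array a genotype limits the precision, and spot errors cover spotting and scanning only.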

Additional observations from a re-analysis of the deposited data

Results flagged for a closer look

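On 3 member probes a difference of at least 2-fold had opposite signs on the 2 backgrounds; none of these was tested. For Hist1h1c the TET2KD difference was 1.50 without JAK2V617F and -1.52 with it, an interaction of -3.03 in log2. For Hist1h2bq it was -1.43 and 1.24, an interaction of 2.67, with TET2KD and JAK2V617F not well above background. For Hist2h2bb the JAK2V617F difference was -2.21 without the knock-down and 1.03 with it, an interaction of 3.24, with TET2KD not well above background.

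Outside the naming rule, 6 probes have a gene name that does not match it, but their array descriptions name a histone cluster gene. One, for Hist1h2bg, was above WT on all 3 mutant arrays: it had 1435 in TET2KD, 1826 in JAK2V617F, 861 in the double mutant and 537 in WT, log2 differences of 1.51 and 1.74 for the first pair. Of the others, Hist2h2aa1 had 1385 in TET2KD, 1271 in JAK2V617F, 1555 in the double mutant and 1823 in WT. Hist1h2ac, dim and not well above background in TET2KD, differed from WT by -0.40 for TET2KD, 0.63 for JAK2V617F and -0.57 for the double mutant. A second Hist4h4 probe was well above background in the double mutant alone, and those for Hist1h2ae and Hist3h2ba on no array.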

How the results depend on the processing

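No paired analysis was possible because each genotype has 1 array. A slide block could not be fitted, as all arrays lie on 1 slide. Of 228 recomputed summaries (medians, counts and the fit), 202 stayed within the spot SD or within 1.5 times the count. This rule did not look for changes of sign in the medians. The median over histone probes ranged from -0.70 to -0.56 in TET2KD, 0.01 to 0.07 in JAK2V617F, with -0.29 to -0.16 in the double mutant, all relative to WT, and from -0.29 to -0.23 against JAK2V617F and 0.39 to 0.46 against TET2KD for the double mutant. Counts past 2-fold, which rest on dim probes, moved most. With normexp, probes higher were 1 for TET2KD, 0 for JAK2V617F and 1 for the double mutant relative to WT, and lower ones 1 in JAK2V617F and 1 in the double mutant. The double mutant then had 0 higher and 2 lower against JAK2V617F and 2 higher against TET2KD, and the H2B median in TET2KD was -0.46. At 3-fold, 0 were higher and 6 lower in TET2KD, 1 higher in JAK2V617F, 0 higher in the double mutant against WT, 0 higher and 1 lower against JAK2V617F, and 4 higher against TET2KD. Without late probes, an alternative added after seeing the data, 1 was higher in TET2KD, 1 higher and 1 lower in JAK2V617F, 1 higher in the double mutant against WT, 0 higher and 1 lower against JAK2V617F, and 1 lower against TET2KD. With only probes well above background on both arrays, 6 were lower in TET2KD and 1 was higher in the double mutant against JAK2V617F. With probes of a gene averaged, 1 was higher in JAK2V617F. The share of all probes was not recomputed for these counts, and the cause of their moves was not tested. Both knock-down arrays lay below both others on 33 to 34 of 48 probes under the scalings, and on 32 of 43 well above background on all arrays. With an intensity trend in limma, 18 of 48 histone probes passed an unadjusted p under 0.05 for TET2KD, all lower, where 5.79% of all probes passed, and 0 passed an adjusted p under 0.05. Of 576 values of single probes, 32 moved by more than the spot SD, and 0 called ones changed sign.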
